A study of Mus musculus with 16 samples.

Results

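The nuclear-encoded genes of oxidative phosphorylation were followed in neutrophils of wild-type (WT) mice and mice labelled as knockout for integrin αD (αD KO, gene Itgad, also called CD11d). Members were the protein-coding genes whose mouse symbol begins with Nduf, Uqcr, Cox4 to Cox8 or Atp5, together with Sdha, Sdhb, Sdhc and Sdhd, and without Cox6a2. The rule took 92 of the 49315 genes in the count files, from 104 matches of the prefixes, of which 11 were not protein-coding. They comprised 38 complex I genes, 4 complex II genes, 8 complex III genes, 17 complex IV genes, 17 ATP synthase genes and 8 complex I assembly factors (Ndufaf genes), which were kept as a class of their own. Ndufa4 carries a complex I name, although its product is also placed in complex IV, and it was counted under complex I unless stated.

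The neutrophils (Ly6G+, CD11b+ and CD45.2+ by sorting) came from blood and lungs of male mice 8 to 12 weeks old. They were taken at the baseline (0h, without surgery) or 12 hours post cecal ligation and puncture (CLP), a surgical model of abdominal sepsis. By the study's methods the αD KO mice came from a commercial supplier, and no other allele was named for any group. By the study's methods, CLP was done under ketamine and xylazine and followed by warmed saline and buprenorphine, so effects of these agents cannot be told apart from those of the CLP itself. The 8 groups (WT blood, WT lung, αD KO blood and αD KO lung, each at 0h and 12h) held 16 samples and 24 RNA-seq count files, 3 per group. Each group had a file from a second sample (library 2) and a pair of files from its first sample (libraries 1a and 1b), whose counts differed far beyond sampling noise. They were used as 3 libraries per group, and since no label says that they came from separate animals, every p-value measures the spread between these libraries, which may be technical.

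In background, complexes I to IV of the inner mitochondrial membrane pass electrons from NADH (complex I) and succinate (complex II) through ubiquinol and cytochrome c (complex III) to oxygen (complex IV). Complexes I, III and IV pump protons, and ATP synthase uses the gradient to make ATP. Most subunits are encoded in the nucleus and a few, at the core of complexes I, III, IV and ATP synthase, in mitochondrial DNA. Mature neutrophils are known for few mitochondria and for making most of their ATP by glycolysis, whereas their bone marrow precursors hold more mitochondria.

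Library totals ranged from 5753476 to 29984954 counts. The 8 libraries 1b detected 29162 to 38844 genes and the other 16 detected 17132 to 32666. Levels below are counts scaled to library size (CPM, corrected with TMM factors over the 24 libraries), with libraries in the order 1a, 1b and 2. Neutrophil genes such as S100a8, S100a9 and Csf3r summed to between 36400 and 175000 CPM in every library, with a difference by time. In WT blood they were at 36400 to 45500 CPM at 0h and 115000 to 175000 CPM at 12h. The ranges were 39100 to 55400 and 97500 to 143000 CPM in αD KO blood, and 41300 to 49400 and 64300 to 169000 CPM in WT lung. They overlapped in αD KO lung (47900 to 78800 and 51200 to 107000 CPM). The part of this in the members' change was not tested. At the gene level Itgad went against the labels, at 0.0522 to 4.08 CPM in the 12 WT libraries and 12.6 to 96.1 CPM in the 12 αD KO libraries. Gene-level counts cannot tell transcripts of a targeted allele from intact ones. The libraries were also placed between the WT lung 0h mean (0) and the WT lung 12h mean (1) over the 1334 genes that differed between those groups, with members left out. Of the αD KO lung libraries, library 2 at 0h lay at 1.02, and libraries 1a and 2 at 12h lay at 0.08 and 0.19, each nearer the other time point than its label. The remaining αD KO lung libraries lay at 0.15 and 0.08 (0h) and at 0.86 (12h). The comparisons over all members that use αD KO lung are therefore given with and without those libraries. Leaving them out leaves 1 library in αD KO lung at 12h, which is then assumed to vary like the other groups, so only medians are given for such a fit.

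Promoters are shown because nuclear respiratory factor 1 (NRF1), ETS family factors such as GABP, and YY1 are known regulators of respiratory chain genes. The counts cover members whether or not they changed, and a link between motif and change was not tested. RefSeq promoters (GRCm38.p6) of 300 bases matched 76 of the 92 members. The 10-letter NRF1 consensus, searched on both strands like the other motifs, was present in 19 of the 76 (25.0%) and in 5.19% of the 27025 promoters of all genes. The ETS letters CCGGAAG were present in 18 members (23.7%) against 9.93% of all promoters, and the YY1 letters AAGATGGCG in 8 members (10.5%) against 1.64%. At least 1 of the 3 was found in 38 of the 76 members and in 15.1% of all genes. The stretches free of annotated exons just upstream of the start are shown for Ndufa11, the member with the largest rise in WT blood, and for Ndufaf1, a complex I assembly factor that also rose. Only called members with a motif match in such a stretch could be shown, so a match in each was fixed by the choice. They are written 5′ to 3′ and end just before the RefSeq start, and the capitals mark an NRF1 match in Ndufa11 and an ETS match in Ndufaf1. A match is a match of letters only, and binding was not measured.

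Ndufa11 (GRCm38.p6, chr17:56717700-56717761, plus strand): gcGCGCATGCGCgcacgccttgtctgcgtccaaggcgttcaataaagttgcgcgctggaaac

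Ndufaf1 (GRCm38.p6, chr2:119662835-119663084, minus strand): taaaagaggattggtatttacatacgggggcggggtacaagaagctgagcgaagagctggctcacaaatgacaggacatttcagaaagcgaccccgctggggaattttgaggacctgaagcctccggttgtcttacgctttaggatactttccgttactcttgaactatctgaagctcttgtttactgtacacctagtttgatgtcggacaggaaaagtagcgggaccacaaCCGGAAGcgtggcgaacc

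The NRF1 match began 60 bases and the ETS match 18 bases before the RefSeq start.

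Per length (RPKM, the mean over all libraries), the most abundant transcript of the 92 was Cox8a, a small subunit of complex IV, at 296. It was followed by Ndufa1 of complex I at 229 and by Cox6a1 and Cox6b1 of complex IV at 193 and 177. The leading transcripts of the other classes were Sdhd, a membrane anchor of complex II, at 114, Uqcr10 of complex III at 83.8, Atp5mpl of ATP synthase at 90.1, and the assembly factor Ndufaf7 at 15.3. These ranks hold for the mean over all libraries and differed within groups. In WT blood at 12h Ndufa1 was above Cox8a per length. The isoforms Ndufa4l2, Cox4i2, Cox6b2, Cox7a1, Cox7b2, Cox8b and Cox8c, most of them known from muscle, testis, lung or hypoxic cells, were the 7 members too low to test between time points in blood of either genotype. Members were expressed above the average gene, with a median of 47.4 CPM among those tested in WT blood against 7.39 CPM for all genes tested.

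**Figure D1:**
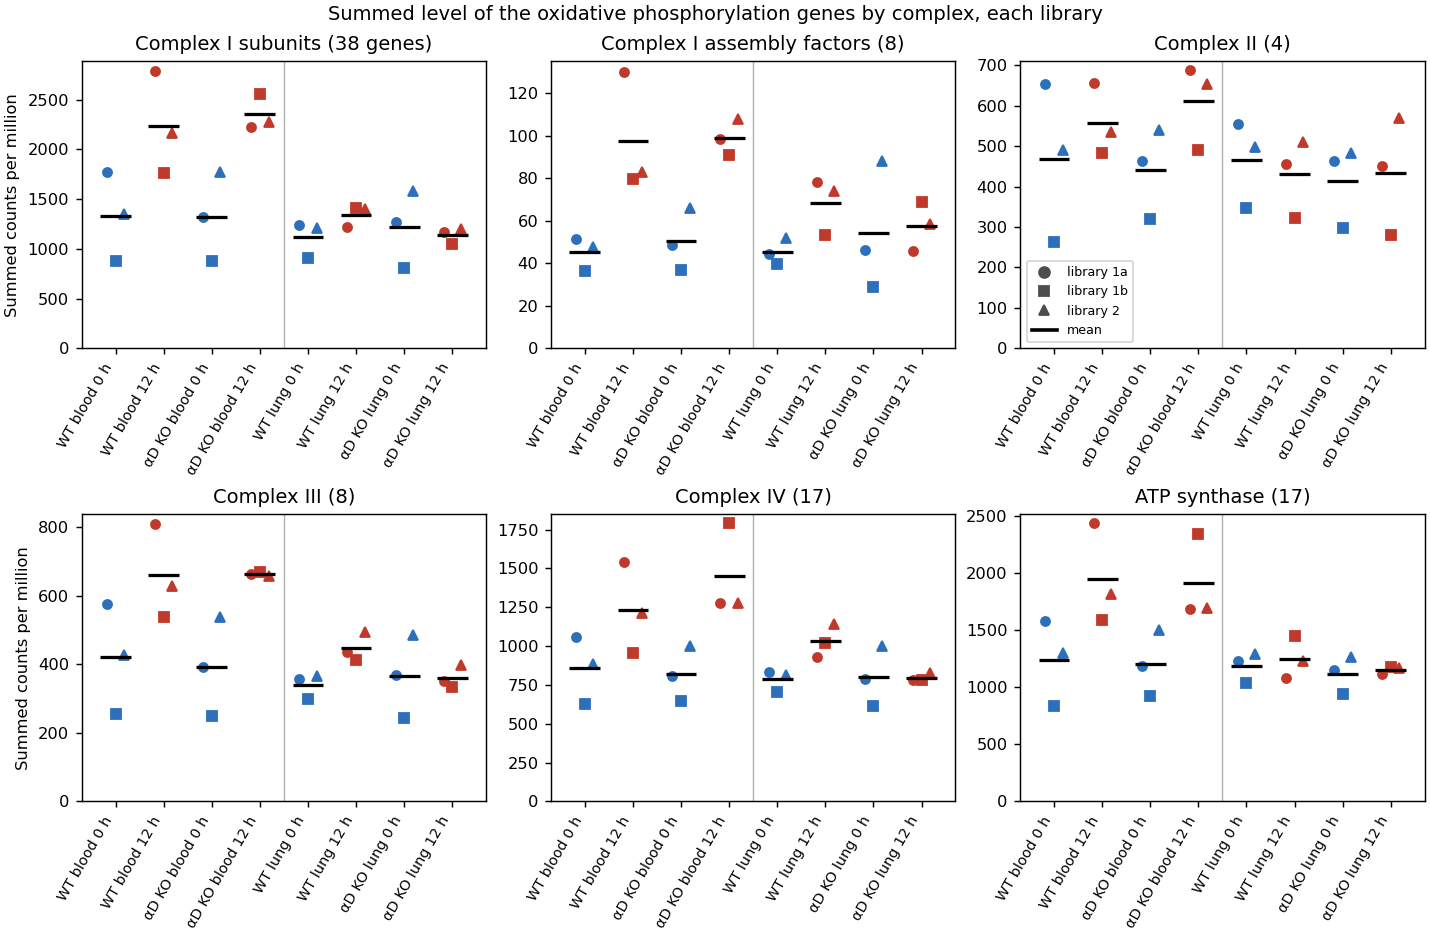
Summed CPM (vertical axis) of the members of each complex in the 8 groups (horizontal axis), with a marker per library (circle 1a, square 1b, triangle 2) and a black bar at the mean. The complex I sum ran from 875 to 1770 in WT blood at the baseline and from 1760 to 2790 at 12 hours post CLP, whereas in WT lung it ran from 906 to 1240 and from 1220 to 1410.

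The first question was how circulating WT neutrophils changed between the baseline and 12 hours post CLP. Transcripts of every complex included members that rose, and no member fell past the threshold in the 3 against 3 libraries. Of 85 members tested, 22 rose (25.9%), all by more than 2-fold, against a background of 7.84% of all 14625 genes that rose and 5.79% that fell (edgeR quasi-likelihood test, Benjamini-Hochberg adjusted p under 0.05 over all genes tested, here and below). The median member was higher by 0.74 on the log2 scale (1.67-fold), the median gene lower at −0.15. The fitted change was above 0 for 72 members (44.6% of all genes were above 0) and below 0 for 13. All 3 libraries at 12 hours lay above all 3 at the baseline for 47 members (21.7% of all genes did so), and below them for 1 member (16.4% of all genes). With the library number as a block, which the libraries' deviations bear out, 35 members were called in place of 22, and 10.5% of all genes were called higher in place of 7.84%.

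By complex, 10 of 37 complex I genes rose with a median log2 change of 0.88, together with 2 of 8 complex I assembly factors (1.04). In complex II 1 of 4 rose (0.37), in complex III 1 of 8 (0.45) and in complex IV 2 of 11 (0.53). With Ndufa4 counted there, complex IV had 2 of 12 and a median of 0.59. In ATP synthase 6 of 17 rose (0.80). The medians of all classes were thus above the −0.15 of all genes. Those of complexes II and III depended on single libraries, at 0.09 and 0.24 without 0h library 1b and at 0.77 and 0.79 without 0h library 1a, and that of complex IV was 0.31 without 12h library 1a. Summed over the 92 members, the level was 5680, 2900 and 4500 CPM at the baseline and 8360, 5400 and 6450 CPM at 12 hours, so that the lowest 12 hours library lay under the highest baseline library.

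The largest rises were in accessory subunits of complex I and in Uqcrb of complex III. Ndufa11, a membrane arm subunit of complex I (ENSMUSG00000002379, GRCm38 chr17:56717762-56724248), was at 5.01, 1.94 and 3.95 CPM at the baseline and at 83.0, 49.7 and 56.2 CPM at 12 hours. The groups were far apart, and the difference was 4.01 ± 0.42 on the log2 scale (fitted value ± SE, n = 3 libraries per group, edgeR adjusted p = 0.0025), or 16.2-fold. Ndufa5, an accessory subunit of the matrix arm, went from 1.75, 0.797 and 1.56 CPM to 21.1, 14.6 and 15 CPM. Its rise was 3.52 ± 0.43 (edgeR adjusted p = 0.00378). Uqcrb, a small subunit of complex III beside the ubiquinone-binding site (chr13:66900617-66905378), went from 11.2, 6.15 and 12.1 CPM to 124, 71.5 and 92.7 CPM. It rose by 3.22 ± 0.37 (edgeR adjusted p = 0.00333), and 15.8% of its 100-base stretches also occur in transcripts of other genes, so its counts are less certain.

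The other complex I genes that rose were Ndufc2 (2.59), Ndufc1 (2.49), Ndufv3 (2.02), Ndufs4 (1.88), Ndufa9 (1.71), Ndufa12 (1.68), Ndufb2 (1.49) and Ndufb3 (1.35), each given as the log2 change. Ndufs4, a subunit added late in complex I assembly (chr13:114287795-114388094), had little spread between libraries, at 17.3, 14.7 and 13.9 CPM before and 66.4, 57.0 and 51.3 CPM after CLP. Its SE was 0.24 (edgeR adjusted p = 0.00458). The assembly factors that rose were Ndufaf7, a methyltransferase that acts on complex I (1.54), and Ndufaf1, which helps to build its membrane arm (1.46). Among the remaining classes, Sdhc, a membrane anchor of complex II, rose by 1.44, and the small complex IV subunits Cox7c and Cox6c rose by 1.85 and 1.24.

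In ATP synthase the members that rose were Atp5g3 (2.23), Atp5g1 (1.90), Atp5k (1.66), Atp5o (1.63), Atp5f1 (1.30) and Atp5mpl (1.25). Atp5g1, Atp5g2 and Atp5g3 are 3 genes for the same mature c subunit, whose ring turns with the flow of protons. Atp5g3 (chr2:73908447-73911326) was at 25.9, 18 and 25.3 CPM before and 126, 110 and 101 CPM after CLP, and Atp5g1 at 12.3, 8.42 and 11.7 CPM before and 59.1, 30.4 and 37.8 CPM after. Both rose with no overlap between groups. Atp5g2 was at 3.23 to 4.05 CPM before and 6.20 to 7.15 CPM after (log2 difference 0.80, not past the threshold), and all of its 100-base stretches occur in transcripts of other genes, so its level is uncertain. Cox7c (36.2% of stretches shared), Atp5o (44.0% of exon bases overlapped by other genes), Ndufa12 (17.7% shared), Atp5f1 (16.8% shared), Ndufb2 (12.9%) and Cox6c (11.4%) are uncertain in the same way. Among the 61 tested members with at most 10% overlapped or shared sequence, 15 rose (24.6%), with a median of 0.65.

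The catalytic and core subunits described next, chosen by a fixed set with Atp5e added for its values, did not pass the threshold. Atp5b, the catalytic beta subunit of ATP synthase, was at 448, 192 and 383 CPM at the baseline and 580, 385 and 378 CPM at 12 hours. The groups overlapped, with a difference of 0.33 ± 0.41 (edgeR adjusted p = 0.631). Cox8a, the highest member per length in the mean over all libraries, was at 188, 124 and 161 CPM and then at 160, 120 and 152 CPM. The difference was −0.18 ± 0.29 (edgeR adjusted p = 0.713). Sdha, the flavoprotein of complex II that oxidises succinate, was at 260, 119 and 225 CPM and then at 219, 152 and 166 CPM (−0.23 ± 0.37, edgeR adjusted p = 0.71). The iron-sulfur core subunit Ndufs7 was at 113, 42.8 and 68.9 CPM and then at 43.6, 36.7 and 39.7 CPM, a difference of −0.96 ± 0.37 that did not pass the threshold (edgeR adjusted p = 0.134). The 1 member whose 12 hours libraries all lay below the baseline was Atp5e, a small stalk subunit of ATP synthase, at 73.4, 58.6 and 57.8 CPM before and 53.6, 34.9 and 46.0 CPM after (−0.55 ± 0.26, edgeR adjusted p = 0.211).

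Of the remaining core and isoform genes none passed the threshold here. In alternative settings Uqcrfs1 passed it in 4, Cox5b in 3, Cox7a2l and Sdhb in 2 each and Ndufa4 and Uqcrc2 in 1 each. The log2 difference of Sdhb in complex II was 0.98. In complex I the log2 differences were 0.48 for Ndufs1, 0.70 for Ndufv1, 0.67 for Ndufa4 and 0.03 for Ndufab1, the mitochondrial acyl carrier protein. In complex III they were 0.32 and 0.83 for the core subunits Uqcrc1 and Uqcrc2 and 1.00 for the Rieske protein gene Uqcrfs1. In complex IV they were 0.36 for Cox4i1, 0.53 for Cox5a, 0.96 for Cox5b, 0.40 for Cox6a1, 0.65 for Cox7a2 and −0.75 for Cox7a2l, which takes part in joining complexes into supercomplexes. In ATP synthase they were 0.14 for the alpha subunit gene Atp5a1 and −0.29 for the gamma subunit gene Atp5c1.

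**Figure D2:**
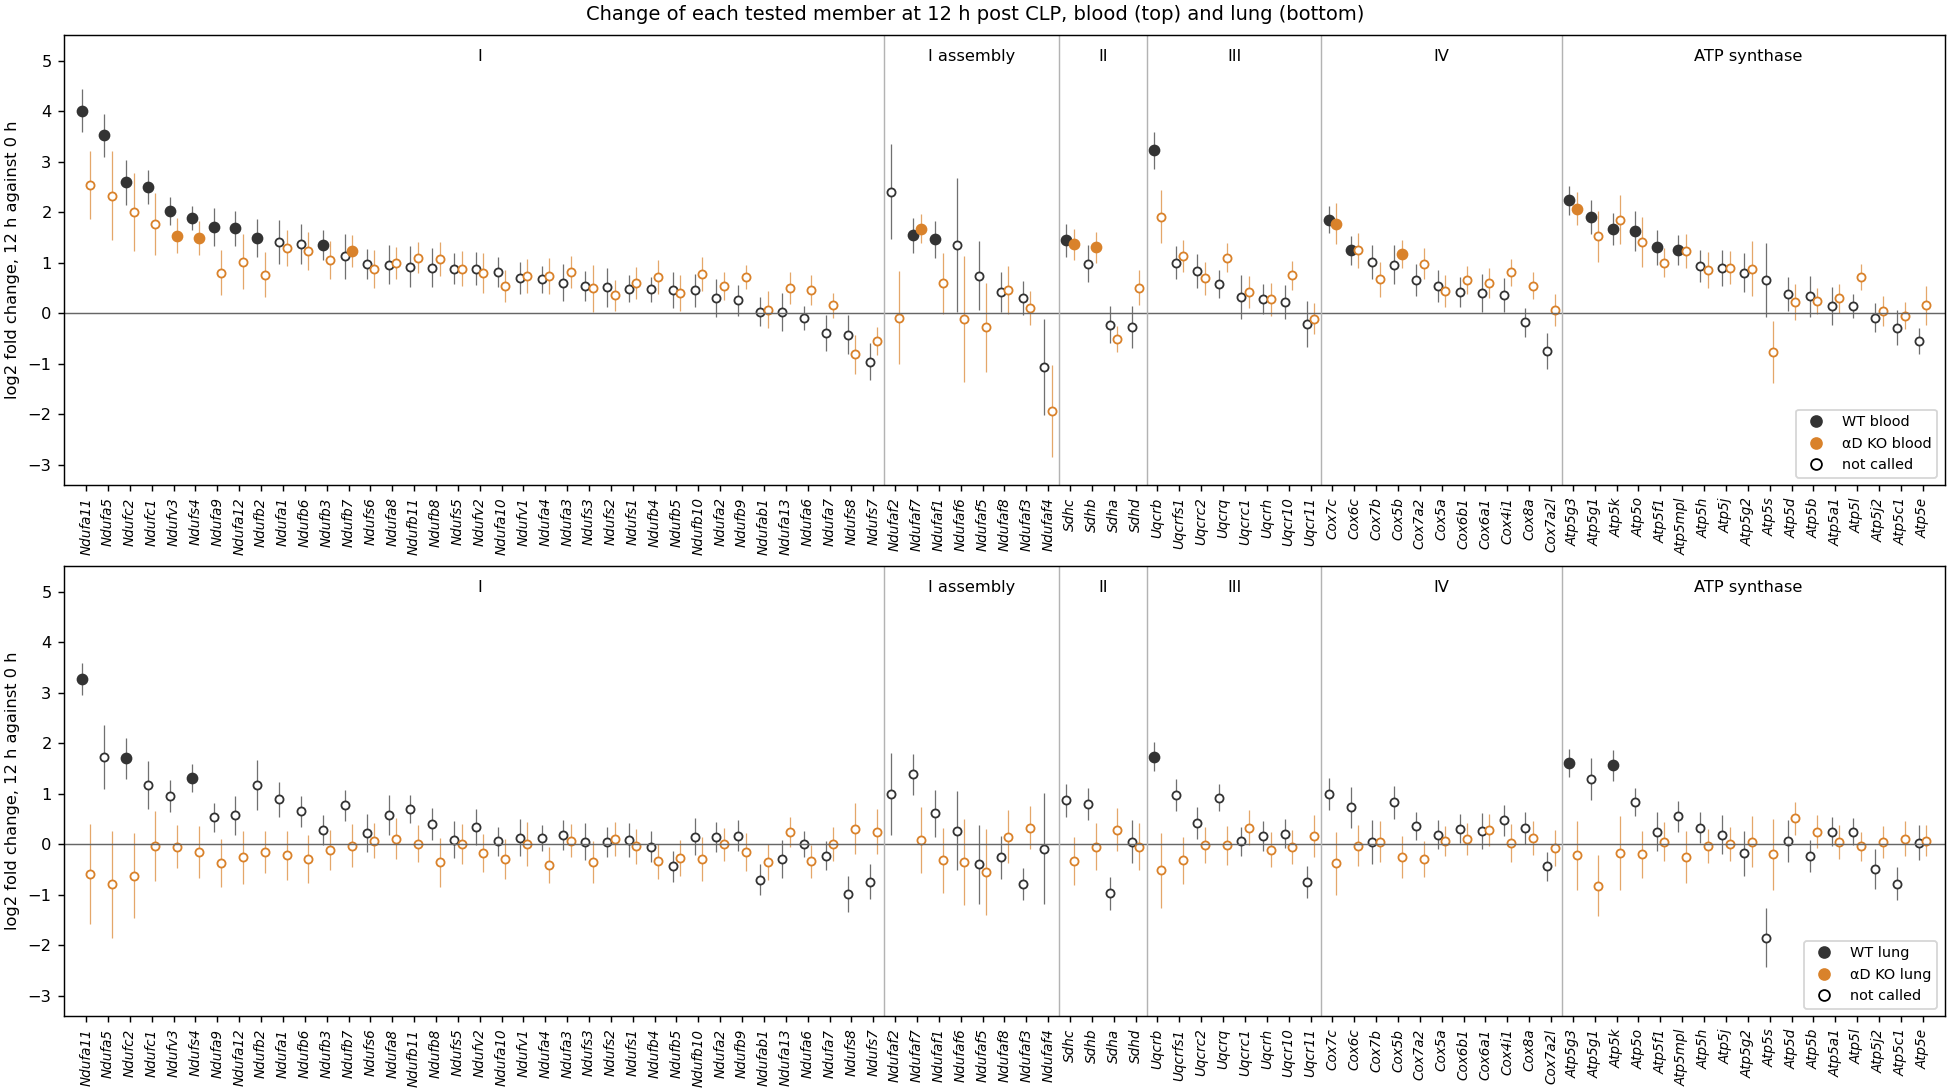
Fitted log2 change from 0h to 12h post CLP (vertical axis, with SE bars) of each member tested in WT blood, grouped by complex (horizontal axis), in blood (top) and lung (bottom). Members tested in lung only are not shown. WT is dark, αD KO orange, and filled symbols passed an adjusted p of 0.05; in WT blood the 22 filled symbols all lie above 0, from 1.24 (Cox6c) to 4.01 (Ndufa11), and αD KO lung has none.

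Several marker genes of neutrophils (levels above), of other cells and of neutrophil maturity moved with this comparison. The summed level of 8 immature neutrophil genes was 6750, 51.0 and 840 CPM in WT blood at the baseline and 147000, 71500 and 63800 CPM at 12 hours, with Ngp, Ltf, Camp and Chil3 carrying the sum and the primary granule genes Elane, Mpo, Ctsg and Prtn3 near 0. Of its 6 tested genes 1 (Chil3) passed the threshold. The summed level of the B cell markers was 329 to 1180 CPM at the baseline and 43.3 to 196 CPM at 12 hours, and that of the platelet markers 47.0 to 118 and 4.26 to 25.1 CPM. Of 7 tested monocyte and macrophage markers 3 were called lower and 1 higher, with a median log2 change of −2.35, although their summed levels overlapped (698 to 1540 and 654 to 1050 CPM). The part of these in the members' change was not tested, and in sorted bulk samples fewer cells of a type and less RNA per cell cannot be told apart. The count of members also rested on single libraries. Without 0h library 1a 1 member was called, without 0h library 2, 12h library 1a or 12h library 2 there were 0, 0 and 0, and without the libraries 1b in turn 24 (22 higher and 2 lower) and 22. The 2 lower were Ndufs7 (−1.26, edgeR adjusted p = 0.0202) and Cox7a2l (−1.02, edgeR adjusted p = 0.0342). Calls over all genes fell alongside, to 150, 46, 19 and 2 for the same 4 libraries, and the members' median stayed between 0.55 and 0.93.

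The same interval was then compared in blood of αD KO mice. Members of every complex but complex III rose, with a median change as large as in WT and fewer calls. Of 85 members 9 rose (10.6%), against 3.77% of all 14156 genes that rose, and 0 fell against 5.0% of all genes. Without adjustment (p under 0.05) 39 were higher and 0 lower, against 12.0% and 15.8% of all genes, and DESeq2 gave 27 higher calls (2.64% of all genes). With libraries 1a and 1b summed edgeR called 2 members (2.1% of all genes higher), and in a single fit of all 8 groups 0. The median was 0.74 (all genes −0.14), 75 members were above 0 (44.7% of all genes were), and the libraries did not overlap for 43 higher members (15.6% of all genes) and 1 lower member (17.7%). The members that rose were Atp5g3 (2.07), Cox7c (1.77), Ndufaf7 (1.67), Ndufv3 (1.53), Ndufs4 (1.49), Sdhc (1.36), Sdhb (1.30), Ndufb7 (1.23) and Cox5b (1.17), on the log2 scale. Per complex these were 3 of 37 in complex I (median 0.79), 2 of 4 in complex II (0.90), 0 of 8 in complex III (0.72), 2 of 11 in complex IV (0.67), 1 of 17 in ATP synthase (0.85) and 1 of 8 assembly factors (0.01). Although 0 complex III genes passed by edgeR, 4 had an unadjusted p under 0.05, and 4 had all 12 hours libraries above all baseline libraries.

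Atp5g3 was at 26.2, 19.5 and 41.9 CPM at the baseline and 115, 143 and 122 CPM at 12 hours in αD KO blood, a rise of 2.07 ± 0.32 (edgeR adjusted p = 0.0095). Sdhb, the iron-sulfur subunit of complex II, went from 87.8, 60.6 and 128 CPM to 252, 209 and 239 CPM (1.30 ± 0.31, edgeR adjusted p = 0.0384). Cox5b, a matrix-facing subunit of complex IV, went from 76.6, 51.7 and 91.3 CPM to 171, 164 and 175 CPM (1.17 ± 0.27, edgeR adjusted p = 0.0358), with 11.8% of its stretches shared with other genes' transcripts. In each of these the 12 hours libraries stood apart from the baseline ones. Ndufa11 was at 7.24, 2.70 and 24.7 CPM and then at 63.6, 73.3 and 69.0 CPM, and here a baseline library (library 2) was several times above the others. Its difference of 2.54 ± 0.67 was just short of the threshold (edgeR adjusted p = 0.0519), as was the 1.91 ± 0.53 of Uqcrb (edgeR adjusted p = 0.0583).

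The WT and αD KO blood comparisons share no library. Of the 22 members that rose in WT blood, 6 rose in αD KO blood (27.3% of the 22 and 66.7% of the 9), namely Atp5g3, Cox7c, Ndufaf7, Ndufs4, Ndufv3 and Sdhc. The same overlap was not counted over all genes, so these shares have no background. The difference between genotypes in the change with time was tested directly, and no member passed it (edgeR, 0 of 87 members, 0 with an unadjusted p under 0.05 against 1.17% of all genes, DESeq2 0, and 0.0% of all genes called), with a median of 0.11 against 0.07 for all genes. With a library left out this median lay between −0.33 (without WT 0h library 1a) and 0.44 (without αD KO 0h library 2). Of the αD KO blood baseline libraries, library 2 had 266 CPM of summed T and NK cell markers against 8.99 to 24.9 CPM in the other 11 blood libraries. Platelet markers were at 504, 26.0 and 598 CPM at the baseline and 4.05 to 35.8 CPM at 12 hours, and immature neutrophil genes at 17300, 164 and 18100 CPM and then at 94700, 23400 and 83900 CPM. B cell markers went from 354 to 1220 CPM to 37.1 to 115 CPM, and 4 of 7 monocyte and macrophage markers were called lower (median −2.56). Their part in the result was not tested. Without baseline library 2, 11 members were called (3.51% of all genes), and without any other library 0 to 5 (0.456% to 8.79% of all genes).

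**Figure D3:**
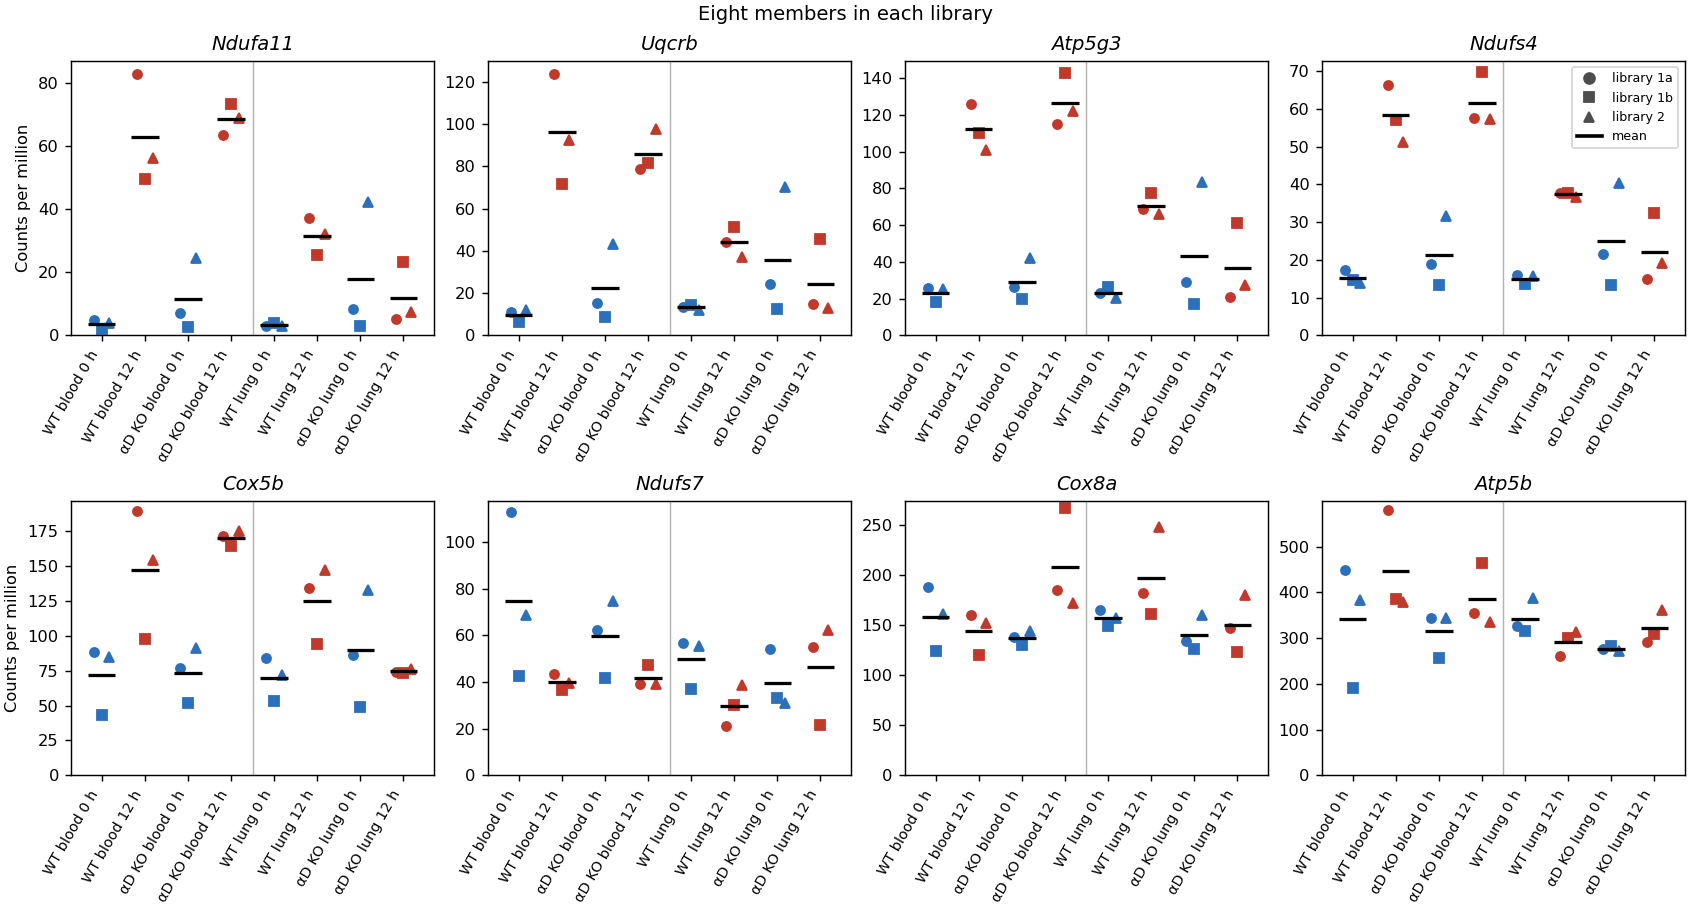
CPM (vertical axis) of 8 members per library in the 8 groups (horizontal axis), with circles for library 1a, squares for 1b and triangles for 2. Ndufa11, Uqcrb, Atp5g3 and Ndufs4 are higher in all 3 WT blood and WT lung libraries at 12 hours, Ndufs7 and Cox8a are not, and in αD KO lung the baseline library 2 is the highest for Ndufa11 (42.2 CPM).

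In lung neutrophils of WT mice members of complexes I and III and of ATP synthase rose. Of 86 members 6 rose (6.98%), against 5.24% of all 14859 genes, and 0 fell against 3.78% of all genes, so the share called was near the background. The median was 0.25 (all genes 0.03), with 67 members above 0 (51.1% of all genes). Without 12h library 2 the median was 0.03 (all genes 0.08) with 45 of 88 above 0, and libraries 1a and 2 alone gave 0.06 with 46 of 84 above 0. The libraries did not overlap for 33 members that were higher (14.7% of all genes) and 9 that were lower (17.4%). The summed level of the 92 members was 4270, 3340 and 4220 CPM at the baseline and 4200, 4680 and 4840 CPM at 12 hours. By complex, 3 of 37 complex I genes (median 0.18), 1 of 8 complex III genes (0.32) and 2 of 17 ATP synthase genes (0.25) rose. In complex II 0 of 4 (0.42), in complex IV 0 of 12 (0.34) and among assembly factors 0 of 8 (0.09) passed the threshold by edgeR, with 3, 2 and 2 unadjusted. Without adjustment (p under 0.05) 22 members were higher (14.4% of all genes) and 6 lower (12.1%), and with DESeq2 8 were higher and 1 was lower.

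The 6 members that rose in WT lung were Ndufa11 (3.27), Uqcrb (1.73), Ndufc2 (1.70), Atp5g3 (1.61), Atp5k (1.56) and Ndufs4 (1.31). All 6 were also among the 22 of WT blood (27.3% of these), an overlap that was not counted over all genes. Ndufa11 was at 2.90, 3.96 and 2.98 CPM at the baseline and 37.1, 25.5 and 32.2 CPM at 12 hours (3.27 ± 0.32, edgeR adjusted p = 0.00383), about as low before CLP as in blood. Uqcrb went from 13.6, 14.5 and 12.1 CPM to 44.0, 51.4 and 37.0 CPM, and Atp5k, the e subunit of ATP synthase at the interface of its dimers, from 7.46, 8.21 and 7.02 CPM to 21.7, 24.8 and 20.1 CPM. The groups did not overlap for any of the 3. Sdha, in contrast, was at 279, 183 and 240 CPM at the baseline and 105, 111 and 145 CPM at 12 hours, all lower, without passing the threshold (−0.97, edgeR adjusted p = 0.107). Ndufs8, a core iron-sulfur subunit of complex I, had a like difference of −0.98 (edgeR adjusted p = 0.126).

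Immature neutrophil genes summed to 164 to 1300 CPM in WT lung at the baseline and to 22600 to 49200 CPM at 12 hours, with 4 of 5 tested genes called higher (Camp, Chil3, Ltf and Ngp). B cell markers summed to 447 to 723 CPM and then to 29.9 to 77.6 CPM, with 3 of 5 called lower, and of 7 monocyte and macrophage markers 3 were called lower and 1 higher (median −0.79). The part of these in the members' change was not tested. Without 12h library 1b, which lay at 0.67 on the scale of WT lung against 1.21 and 1.06 for libraries 1a and 2, 21 members were called (12 higher and 9 lower), where 14.1% of all genes were higher and 13.7% lower. Without 0h library 1b 5 were called (5.03% of all genes), and without any of the other 4 libraries 0 (0.0% to 0.122% of all genes).

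The αD KO lung comparison of 12h with 0h gave no called member. Among 85 members 0 passed the threshold by edgeR, 0 by DESeq2 and 0 at an unadjusted p under 0.05 (0.401% of all genes), and 0 of 17939 genes of any kind were called (0.0%). The median was −0.05, equal to that of all genes, with class medians from −0.16 in complex I to 0.01 in ATP synthase. The comparison includes the 3 libraries whose expression lay nearer the other time point. Ndufa11 was at 8.47, 3.03 and 42.2 CPM in αD KO lung at 0h, where library 2 is the high one, and at 5.02, 23.2 and 7.27 CPM at 12h, where library 1b is. Uqcrb was highest in the same libraries, with 24.2, 12.4 and 70.3 CPM at 0h and 14.9, 45.6 and 13 CPM at 12h. Atp5g3 was at 28.8, 17.3 and 83.5 CPM and then at 21.1, 61.4 and 27.2 CPM. The high values of all 3 genes were thus in the library labelled 0h at 1.02 and in the library labelled 12h at 0.86 on the scale of WT lung. Without the 3 libraries apart, 2 libraries were left at 0h and 1 at 12h, and the median over 91 members was −0.04.

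No member passed the test between αD KO and WT neutrophils in any of the 4 matched settings. Among 86, 85, 85 and 86 members tested in blood at 0h, blood at 12h, lung at 0h and lung at 12h, 0 were called by edgeR and 0 by DESeq2 in each, and 0, 1, 1 and 3 had an unadjusted p under 0.05 (0.709%, 4.01%, 1.86% and 8.29% of all genes). In lung at 12h, libraries 1a and 2 alone gave 21 of 84 members called (8 higher and 13 lower), where 31.6% of all genes were called. By edgeR 0.0115% of all genes were called in blood at 0h and 0.0% in the other 3 settings, and by DESeq2 0.0116%, 0.0259%, 0.0162% and 0.333% in the order above. The median log2 difference of αD KO from WT was 0.12 in blood at 0h (all genes −0.01), 0.14 in blood at 12h (0.03) and 0.12 in lung at 0h (0.17). Without αD KO lung library 2 at 0h the lung value at 0h was on the other side of 0, at −0.11 (all genes 0.28), with 23 of 89 members above 0 and 0 called and 0 unadjusted by edgeR. In lung at 12h it was −0.15 (all genes 0.13), with 25 members above and 61 below 0, and 17 members had all αD KO libraries below all WT libraries (5.77% of all genes did). Immature neutrophil genes summed there to 22600 to 49200 CPM in WT and 7020 to 16800 CPM in αD KO. B cell markers were at 29.9 to 77.6 and 52.9 to 495 CPM, and monocyte and macrophage markers at 648 to 1300 and 849 to 1270 CPM. The part of these was not tested.

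Per complex, the medians of αD KO against WT in blood at 12h were 0.14 for complex I, 0.22 for complex II, 0.19 for complex III, 0.29 for complex IV, 0.07 for ATP synthase and −0.19 for the assembly factors. In lung at 12h they were −0.17, −0.30, −0.16, −0.28, −0.13 and −0.03 in the same order. At the baseline the medians of the 5 complexes lay between 0.01 and 0.12 in blood and between 0.02 and 0.18 in lung, and the assembly factors were at 0.42 in both. These medians depended on single libraries. In blood at 12h those of complexes I, III and IV and of ATP synthase were −0.01, 0.04, 0.07 and −0.16 without αD KO library 1b, and the median of all members was −0.05. Without αD KO lung library 2 those of complexes I to IV in lung were −0.08, −0.28, −0.19 and −0.13, and without WT library 1b those in blood were −0.17, −0.26, −0.22 and −0.19. In lung the change with time, tested between genotypes, had a median of −0.29 (all genes −0.19) over 89 members, and of −0.08 (all genes −0.33, 1 member unadjusted) without αD KO 0h library 2. The edgeR test called 0 of them and 0.0% of all genes, DESeq2 called 1, and 10 had an unadjusted p under 0.05 (1 higher and 9 lower in αD KO, against 10.5% of all genes in either direction). The most negative of these was Ndufa11 at −3.88 ± 1.11 (edgeR adjusted p = 0.41). The lung values at 12h include the αD KO libraries 1a and 2 that lay near 0h. Without them the median of αD KO against WT was −0.26 over 88 members. Without all 3 libraries apart the difference in the change with time had a median of −0.30 over 91 members.

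Lung and blood neutrophils of the same genotype and time were compared last. At the baseline the medians were near 0, with a lung-minus-blood difference of −0.16 in WT (all genes −0.08) and −0.08 in αD KO (all genes 0.03), or −0.23 (all genes 0.25) without αD KO lung library 2. The sign rested on single libraries, with 0.18 in αD KO without blood library 2 and 0.06 in WT without blood library 1a. By edgeR and DESeq2 0 members and by edgeR 0.0% of all genes were called there, and 4 of 85 and 1 of 87 members were lower without adjustment (2.54% and 2.91% of all genes in either direction). At 12 hours post CLP most members were lower in lung, without any passing the edgeR threshold on the 3 libraries per group. In WT at 12h 80 of 86 members were below 0, the median was −0.64 (all genes 0.03), and 47 members had all lung libraries below all blood libraries (15.1% of all genes). Without WT blood library 1a the median was −0.40 and 9 members had an unadjusted p under 0.05. In αD KO at 12h 80 of 85 members were below 0, the median was −0.97 (all genes 0.07) and 62 did not overlap (14.1% of all genes). By edgeR 0 members were called in either, with smallest adjusted p-values of 0.102 and 0.092, and 0.0442% and 0.0548% of all genes were called. At an unadjusted p under 0.05, 28 members were lower in WT lung (7.09% of all genes) and 55 in αD KO lung (9.7%). DESeq2 called 4 lower in WT (0.437% of all genes) and 28 lower in αD KO (0.924%). With libraries 1a and 1b summed edgeR called 7 lower in WT (1.67% of all genes) and 29 in αD KO (3.4%). Libraries 1a and 2 alone gave 41 lower and 1 higher in WT, and 45 lower and 2 higher in αD KO. Of all genes 13.5% and 16.2% were then lower.

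Complex I had medians at 12h of −0.77 in WT, where all 37 tested genes were below 0, and −1.25 in αD KO. These were the lowest of the 5 complexes, but without the αD KO lung libraries 1a and 2 complex II was lower than complex I in αD KO (−1.61 against −1.48). The medians in WT and αD KO were −0.56 and −0.98 for complex II, −0.44 and −0.90 for complex III, −0.34 and −0.84 for complex IV, −0.63 and −0.85 for ATP synthase and −0.94 and −0.83 for the assembly factors. Without WT blood library 1a at 12h, that of complex IV in WT was −0.10 and that of complex II −0.35. Ndufa5 was at 21.1, 14.6 and 15 CPM in WT blood and 5.80, 5.12 and 4.58 CPM in WT lung at 12h, without overlap (−1.68 ± 0.33, edgeR adjusted p = 0.102). Cox4i2, the isoform of the complex IV subunit 4 known from lung, stood apart in the other direction. It was at 0.104 to 0.491 CPM in WT blood and 1.10 to 1.62 CPM in WT lung at 12h, and at 0.0611 to 0.27 CPM in αD KO blood and 0.534 to 1.68 CPM in αD KO lung. These differences of 2.20 and 3.04 were not past the threshold (edgeR adjusted p = 0.194 and 0.13), and the level was low throughout. The summed level of lung structural genes at 12h was 13.3 to 16.8 CPM in WT blood and 92.8 to 432 CPM in WT lung, and its part in the Cox4i2 difference was not tested.

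**Figure D4:**
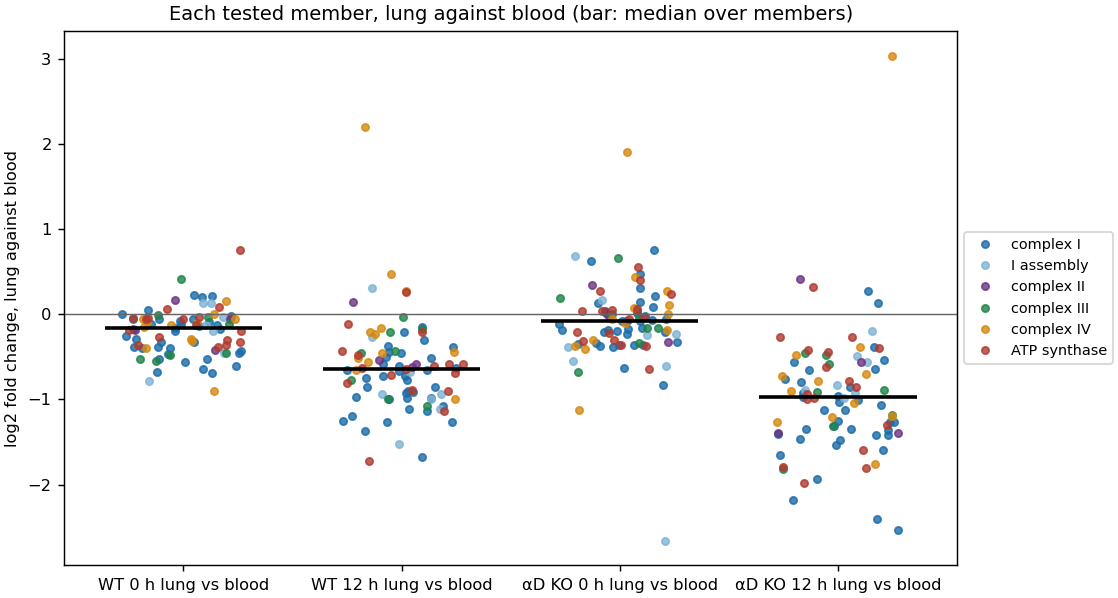
Fitted log2 difference of lung from blood (vertical axis) for each tested member in WT and αD KO at 0h and 12h (horizontal axis), with a bar at the median. The medians are −0.16 and −0.08 at the baseline and −0.64 and −0.97 at 12 hours, and the highest point at 12 hours in both genotypes is Cox4i2.

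The 12h lung and blood libraries differed in other genes as well. Immature neutrophil genes summed to 63800 to 147000 CPM in WT blood and 22600 to 49200 CPM in WT lung, and to 23400 to 94700 CPM in αD KO blood and 7020 to 16800 CPM in αD KO lung. Monocyte and macrophage markers summed to 654 to 1050 CPM in WT blood and 648 to 1300 CPM in WT lung, and to 544 to 737 CPM in αD KO blood and 849 to 1270 CPM in αD KO lung. Lung structural genes summed to 13.3 to 16.8 CPM in WT blood and 92.8 to 432 CPM in WT lung, and to 6.12 to 21.2 CPM and 62.1 to 195 CPM in αD KO. The part of these in the members' difference was not tested. The difference between tissues in the change with time was tested in its own model. In WT it had a median of −0.66 (all genes 0.56) with 77 of 88 members below 0, but without WT blood 0h library 1b the members (−0.28) and all genes (−0.27) had nearly the same median, with 3 members unadjusted. In αD KO the median was −1.07 (all genes 0.44) with 78 of 89 below 0. By edgeR and by DESeq2 0 members were called in either. All genes gave 0.0% called by edgeR in both, and 0.219% and 0.572% by DESeq2. By edgeR 12 members in WT and 31 in αD KO were lower at an unadjusted p under 0.05 (3.03% and 5.9% of all genes). Without the 3 αD KO lung libraries apart the αD KO median was −1.03 over 91 members. Counted in either direction, 0 members were left in WT without blood 12h library 1a (median −0.40) or lung 12h library 2 (median −0.67), and 5 in αD KO without lung 0h library 2 (median −0.77). Without the αD KO lung libraries 1a and 2 at 12h, the αD KO lung and blood comparison at 12h had a median of −1.31. The counts also changed without single libraries, to 28 members called lower without WT lung library 1b (21.3% of all genes called in either direction) and to 30 without αD KO lung library 1b (11.2%).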

How the data were processed

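RNA was taken from sorted neutrophils with a Qiagen kit, amplified as full-length cDNA (SMART-Seq v4), made into Nextera XT libraries and sequenced as paired ends on a HiSeq instrument. The authors trimmed reads with Trimmomatic 0.36, aligned them to GRCm38 with STAR 2.5.2b and deposited raw counts of unique reads in exons for each gene, without normalization. The counter and its strand setting are not given in the sources used here, so reads of overlapping genes cannot be told apart.

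Gene identifiers were matched to symbols (48970 of 49315), and 44823 of them, 71 of the 92 members among these, had the same position in GENCODE M21, from which shared and overlapping sequence was computed. Counts were tested with edgeR 4.0.16 in R 4.3.3 (quasi-likelihood F test, TMM factors, filterByExpr, two-sided) on the 3 libraries of each compared group, with Benjamini-Hochberg adjustment over all genes tested. There were 12 comparisons of 2 groups and 4 interactions. The script was tested on simulated data. Alternatives were DESeq2 1.42.0 (the tool of the study), RLE factors, no filter, all 8 groups in a single fit, libraries 1a and 1b summed, libraries 1a and 2 alone, the library number as a replicate block and each library left out in turn. Leaving out αD KO lung libraries nearer the other time point was added after seeing the data. The members and lists were chosen with earlier results of these data known. Genes named were the 3 members with the largest rise and fall among those called in a comparison, a fixed set of core and isoform genes, and the member of each class with the highest level per length. Ndufs8, Atp5e, Cox6b1, the other called members and the largest differences between tissues were named after their values were seen.

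Same-numbered WT blood libraries deviated together (Pearson r of 0.458, 0.589 and 0.118 over 14625 genes between 0h and 12h), so the block was taken as a pairing there. It also was, by every r over 0.1, for αD KO lung over time, for αD KO against WT in blood at 0h, and for lung against blood in WT at both times and in αD KO at 12h. In WT blood over time 5 of 6 libraries were closest to their own number. In the others the count was 4, 6, 3, 6 and 2 of 6, in the order named. The pairing is thus doubtful for lung against blood in WT at 0h and in αD KO at 12h. Files 1a and 1b of a sample differed by a chi-square of 63.5 to 328 per degree of freedom over genes with at least 10 counts. RPKM was computed from the CPM and the exon length of each gene.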

Additional observations from a re-analysis of the deposited data

How the results depend on the processing

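Over all comparisons, 655 counts and class medians under an alternative stayed within the spread or within 1.5 times the value given above and 92 did not. The count of members called moved most. In WT blood it was 35 with the library number as a replicate block, 40 with libraries 1a and 1b summed (39 higher and 1 lower) and 10 with no filter, where 18.8%, 18.2% and 2.25% of all genes were called. In WT lung it was 24 of 84 with libraries 1a and 2 alone (14 higher and 10 lower, where 41.4% of all genes were called), 3 with no filter (3.15%) and 1 in the fit of all 8 groups (1.65%). In αD KO blood it was 27 by DESeq2, 16 with the replicate block, 2 with libraries summed, 14 with no filter and 0 in the fit of all 8 groups, where 5.72%, 10.7%, 3.84%, 4.05% and 0.236% of all genes were called. There the same-numbered libraries had r of 0.05, 0.376 and 0.269 and share only a number, with 5 of 6 libraries closest to their own. For αD KO against WT in lung at 12h, libraries 1a and 2 alone gave 21 (8 higher and 13 lower, where 31.6% of all genes were called). For lung against blood at 12h the counts in WT were 4 by DESeq2, 42 with libraries 1a and 2 alone, 7 summed and 2 with no filter, where 2.09%, 30%, 4.47% and 1.59% of all genes were called. In αD KO they were 28, 47, 29 and 14 (2.98%, 38.1%, 8.27% and 3.13% of all genes). The genotype by time difference in lung gave 1 by DESeq2 (0.646% of all genes) and 10 of 88 with libraries 1a and 2 alone (13.2%), and the tissue by time difference in WT gave 5 of 86 with those alone (7.41%). The replicate block changed no other call where the numbers pair the libraries. The cause of these changes was not tested.

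Class medians moved in the lung. For αD KO against WT at 12h, RLE factors gave −0.28 in complex I, −0.39 in complex IV and −0.22 in ATP synthase. With the αD KO lung libraries nearer the other time point left out these were −0.34 in complex I, 0.31 in the assembly factors and −0.49 in complex III. For αD KO lung against blood at 12h the same setting gave −1.48, −0.61, −1.61, −1.41 and −1.10 for complex I, assembly factors, complexes II, III and IV. Of the named genes that were not called in WT blood, Atp5a1 was at −0.15 with libraries 1a and 2 alone, Cox8a at 0.02 in the fit of all 8 groups and Ndufab1 at −0.01 with RLE factors, each on the other side of 0. Ndufs7 passed the threshold, lower, with libraries 1a and 2 alone, with libraries summed and without 0h library 1b.

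With each library left out in turn, the count ran from 0 to 24 in WT blood, 0 to 21 in WT lung, 0 to 11 in αD KO blood, 0 to 28 for lung against blood at 12h in WT and 0 to 30 in αD KO. Medians ran from 0.73 to 1.16 (assembly), 0.09 to 0.77 (complex II), 0.24 to 0.79 (complex III), 0.31 to 0.66 (complex IV) and 0.65 to 1.17 (ATP synthase) in WT blood. In WT lung they ran from −0.05 to 0.39 (complex I), −0.09 to 0.91 (assembly), −0.03 to 0.50 (complex III), 0.13 to 0.48 (complex IV) and −0.15 to 0.36 (ATP synthase). In αD KO blood the ranges were 0.64 to 1.19 (complex I), −0.05 to 0.80 (assembly) and 0.48 to 0.97 (complex IV), and in αD KO lung −0.39 to 0.21 (complex I), −0.28 to 0.32 (complex III), −0.17 to 0.24 (complex IV) and −0.17 to 0.28 (ATP synthase). For αD KO against WT the assembly factors ran from −0.37 to −0.05 in blood at 12h and from −0.27 to 0.70 in lung at 0h. In lung at 12h the ranges were −0.29 to −0.15 (complex I), −0.40 to 0.19 (assembly), −0.44 to −0.16 (complex IV) and −0.22 to 0.16 (ATP synthase). For lung against blood they were −0.47 to −0.10 (complex IV), −0.69 to −0.35 (complex II) and −0.90 to −0.43 (ATP synthase) in WT at 12h, −0.56 to 0.41 in αD KO at 0h (assembly), and −1.30 to −1.19 (complex I), −1.25 to −0.47 (assembly) and −1.11 to −0.83 (complex III) in αD KO at 12h. Single genes that crossed 0 in WT blood were Atp5a1 (−0.16 to 0.48), Atp5c1 (−0.53 to 0.02), Cox8a (−0.35 to 0.03), Ndufab1 (−0.12 to 0.25), Sdha (−0.51 to 0.02) and Uqcrc1 (−0.00 to 0.80).

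With 3 libraries per group, a count of called members says little about the members not called, and the shallowest library held 5753476 counts.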

Other observations

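The subunits that mitochondrial DNA encodes also rose in WT blood at 12 hours post CLP. Of 12 tested, 7 were called higher by edgeR (mt-Atp6, mt-Co1, mt-Co2, mt-Co3, mt-Cytb, mt-Nd1 and mt-Nd4), with a median log2 change of 2.03 (7.84% of all genes rose). Their summed level was 302, 514 and 366 CPM at the baseline and 2100, 1090 and 1640 CPM after CLP, with no overlap. In WT lung the sum was already 2030, 2020 and 1460 CPM at the baseline and 1990, 1630 and 2080 CPM at 12 hours, and 0 of 13 were called by edgeR (1 lower at an unadjusted p under 0.05). In αD KO blood it was 488, 457 and 1820 CPM and then 1330, 522 and 1640 CPM, and the groups overlapped (median 0.23, edgeR 0 of 12 called and 0 unadjusted). In αD KO lung it ranged from 802 to 8310 CPM over the 6 libraries, with 0 of 12 called by edgeR between time points and 6 lower at 12h without adjustment (0.401% of all genes in either direction). Between WT lung and WT blood at the baseline the median difference of these genes was 1.86, with 0 of 12 called by edgeR and 7 at an unadjusted p under 0.05 (2.54% of all genes).

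Other mitochondrial genes are given for WT blood beside the same background, with 5.79% of all genes that fell. Of 77 mitochondrial ribosome genes (Mrpl and Mrps), 10 rose (13%) and 1 fell, with a median of 0.54. Of 17 TCA cycle genes 2 rose (Idh3a and Sucla2, median 0.67), and of 11 genes for electron carriers and nucleotide exchange 3 rose (Etfa, Etfb and Vdac3, median 0.95). Of 38 other assembly factors 2 rose (Bcs1l and Cox15, median −0.06), and of 12 tested regulators of mitochondrial biogenesis 0 passed the threshold (edgeR, 1 unadjusted, median −0.16). In WT lung the mitochondrial ribosome had 4 that rose (5.19%, near the 5.24% of all genes) and 1 that fell of 77 (median 0.12), Etfa rose, and Idh3g and Polg2 fell.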
